A study of Homo sapiens with 6 samples.

Results

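Core histone genes encode the proteins around which DNA is wrapped in the nucleosome, and DEK, a chromatin-bound protein and histone chaperone, was mapped over them in U937, an established human myeloid leukemia cell line. The genes were the protein-coding genes of GENCODE release 44 on GRCh37 with a name that begins with H2AC, H2BC, H3C or H4C and ends in a number, together with 2 genes that carry older names there, HIST1H4B and HIST2H2AA3. This rule gave 60 of 20163 protein-coding genes: 17 for H2A, 16 for H2B, 13 for H3 and 14 for H4. No gene named H2BC7, H2BC8 or H4C6 is among the 60. Pairs and neighbours below are those among the 60 genes only. A total of 57 lie in 3 clusters. On chromosome 6, 26 genes stand near 26 Mb (the 26 Mb cluster) and 20 genes, from H2BC11 to H2BC17, stand past 27 Mb (the 27 Mb cluster). The cluster on the long arm of chromosome 1 (the 1q21 cluster) holds 11 genes, and H2AC25, H2BC26 and H4C16 lie outside the clusters.

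H2A and H2B form dimers, and H3 and H4 form a tetramer, which join in the nucleosome. Most genes of these families are short, lack introns, exist in many copies and are transcribed mainly while DNA is replicated, when new nucleosomes are needed. Their mRNAs end in a stem-loop instead of a poly(A) tail, and many H2A and H2B genes stand head to head with a shared promoter region between them. Trimethylation of lysine 4 of histone H3 (H3K4me3) is a mark of active or poised promoters.

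Chromatin of U937 cells, for which the labels give no treatment, was crosslinked, sheared and precipitated with an antibody against DEK or an antibody against H3K4me3, with 2 samples for each antibody, and the peak list of each of these 4 samples was analysed. Of the 2 samples of non-precipitated chromatin (Input), no file was analysed here. All samples come from 1 cell line, and nothing in the labels says whether the replicates are separate cultures. The lists differ in length. DEK replicate 1 has 15017 peaks and DEK replicate 2 has 152779, and H3K4me3 replicates 1 and 2 have 47523 and 29335. The study sequenced read pairs and states a minimum of reads per sample, not the total of each, and the tags (reads) in DEK peaks sum to 988363 and 4172422. The false discovery rate that the peak caller gave is 100% for every peak of DEK replicate 1 and lies between 0.74% and 16.67% in replicate 2. As a check of the label, 8 of 12 myeloid marker genes had an H3K4me3 peak at a transcription start site (TSS) in both lists, namely SPI1, CEBPA, CEBPE, MPO, CD33, ITGAM, CSF3R and FCER1G. CSF1R, ELANE, LYZ and TYROBP did not have it in both. The mark was present at 0 of 5 T cell markers, 0 of 4 erythroid markers and 1 of 4 epithelial or hepatic markers (KRT8).

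Promoters of strongly bound genes of each family are shown first, since they lie at or under the DEK peaks of both replicates, followed by 3 from genes with a DEK peak in replicate 2 only and no H3K4me3. Each is written 5′ to 3′, from GRCh37. Between the TSSs of a divergent pair the plus strand is given, and for single genes the 250 bp before the TSS on the gene's own strand. Capitals mark the letters of 4 promoter elements on either strand: TATAAA (the TATA box, where the general transcription machinery binds), CCAAT (bound by NF-Y), ATTTGCAT (the octamer, bound by POU2F1) and GGGCGG (the GC box, bound by SP1). One more motif searched, GAGGAAGT, is a site of the ETS type that PU.1 binds. The capitals mark letters, not sites shown to be bound.
H2BC21 to H2AC20, chr1:149858233-149858467: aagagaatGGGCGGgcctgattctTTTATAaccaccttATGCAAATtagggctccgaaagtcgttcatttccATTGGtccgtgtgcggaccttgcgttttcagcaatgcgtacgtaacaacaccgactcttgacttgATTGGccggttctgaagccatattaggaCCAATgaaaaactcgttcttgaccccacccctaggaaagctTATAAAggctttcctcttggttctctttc
H2BC12 to H2AC12, chr6:27114635-27114884: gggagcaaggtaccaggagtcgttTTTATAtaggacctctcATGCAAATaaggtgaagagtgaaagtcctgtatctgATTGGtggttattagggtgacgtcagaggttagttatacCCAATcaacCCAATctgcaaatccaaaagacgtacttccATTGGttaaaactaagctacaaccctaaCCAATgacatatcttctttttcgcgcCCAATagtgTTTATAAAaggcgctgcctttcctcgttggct
H3C10, chr6:27777579-27777828, plus strand: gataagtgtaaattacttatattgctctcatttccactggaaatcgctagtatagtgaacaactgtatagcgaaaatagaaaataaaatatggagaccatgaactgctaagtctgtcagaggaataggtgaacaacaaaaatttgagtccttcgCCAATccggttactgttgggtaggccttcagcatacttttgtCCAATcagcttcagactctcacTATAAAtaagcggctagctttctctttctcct
H3C2, chr6:26032328-26032577, minus strand: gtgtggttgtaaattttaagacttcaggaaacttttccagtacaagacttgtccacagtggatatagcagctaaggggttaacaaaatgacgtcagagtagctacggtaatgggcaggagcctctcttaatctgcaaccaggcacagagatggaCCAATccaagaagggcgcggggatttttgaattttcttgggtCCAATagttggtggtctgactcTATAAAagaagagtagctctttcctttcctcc
H4C12, chr6:27799339-27799588, minus strand: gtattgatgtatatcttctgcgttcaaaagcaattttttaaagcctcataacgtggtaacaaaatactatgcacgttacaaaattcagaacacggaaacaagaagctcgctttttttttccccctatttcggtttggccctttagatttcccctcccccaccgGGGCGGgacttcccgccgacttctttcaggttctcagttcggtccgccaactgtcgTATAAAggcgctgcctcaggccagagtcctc
H2AC1 to H2BC1, chr6:25726791-25727004: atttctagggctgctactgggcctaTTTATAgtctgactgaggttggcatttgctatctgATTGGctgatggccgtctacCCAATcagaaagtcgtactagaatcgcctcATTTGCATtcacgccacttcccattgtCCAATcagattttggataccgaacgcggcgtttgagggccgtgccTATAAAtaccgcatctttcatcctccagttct
H4C7, chr6:26247225-26247474, minus strand: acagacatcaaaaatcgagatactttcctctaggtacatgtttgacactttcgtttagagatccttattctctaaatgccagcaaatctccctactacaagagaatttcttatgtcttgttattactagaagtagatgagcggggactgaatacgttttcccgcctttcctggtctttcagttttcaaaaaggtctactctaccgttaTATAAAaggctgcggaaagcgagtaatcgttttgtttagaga
H3C11, chr6:27840125-27840374, minus strand: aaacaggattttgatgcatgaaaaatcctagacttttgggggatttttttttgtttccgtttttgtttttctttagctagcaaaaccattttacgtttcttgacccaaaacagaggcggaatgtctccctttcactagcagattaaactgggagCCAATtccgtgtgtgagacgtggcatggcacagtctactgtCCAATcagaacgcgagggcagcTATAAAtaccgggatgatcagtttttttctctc

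DEK peaks were found at 38 of the 60 core histone genes in both replicates, which is 63.3% (95% Wilson interval 50.7% to 74.4%) against 6.19% of all protein-coding genes. A gene was counted as bound when the middle of a peak lay within 1000 bp of any of its annotated TSSs. In replicate 1 there were 40 such genes (66.7%, against 8.45% of protein-coding genes) and in replicate 2 there were 55 (91.7%, against 56.9%). The much longer second list thus reached most genes of any kind, and the contrast with the background was larger in replicate 1. Of the remaining genes, 17 were bound in replicate 2 only, 2 in replicate 1 only and 3 in neither. Genes that share a promoter region share peaks, so these genes are not independent and the Wilson intervals cover counting error only.

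**Figure D1:**
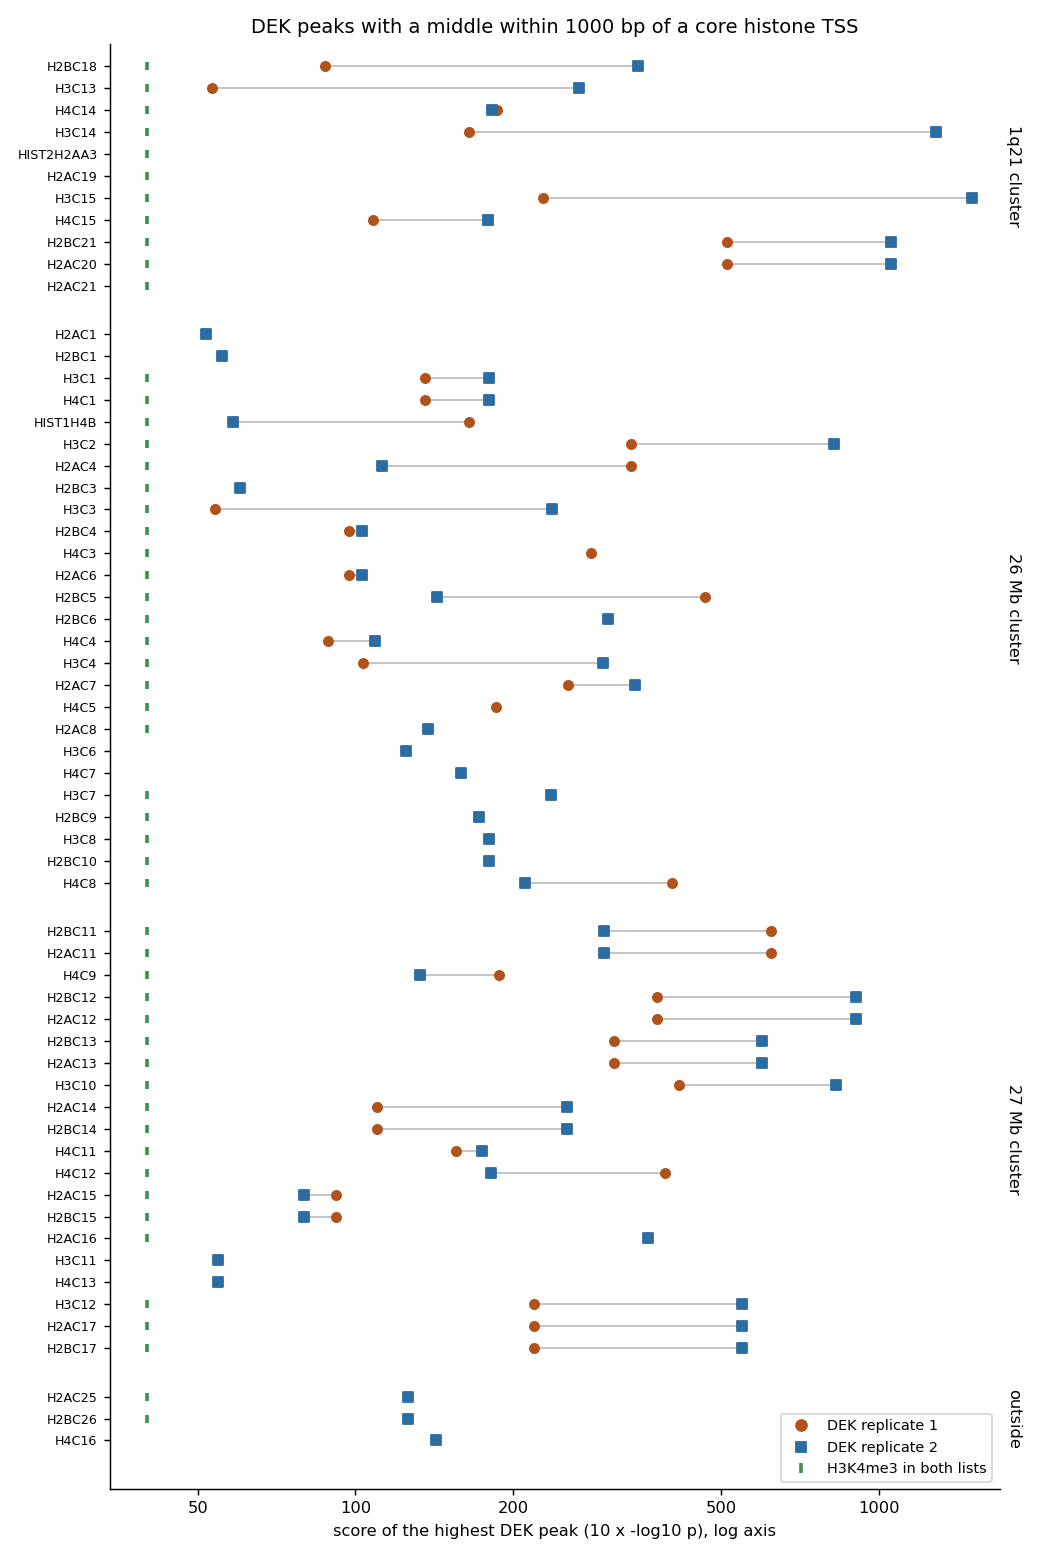
Score of the highest DEK peak at each of the 60 core histone genes, in chromosomal order within each cluster, on a log axis. Circles are replicate 1 and squares replicate 2, a line joins the values of a gene bound in both, a missing symbol means no peak within 1000 bp, and green ticks mark genes with H3K4me3 in both lists. The 7 genes without a tick have a square and no circle.

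The 4 families differed little in how many members were bound. DEK was called in both replicates at 10 of 17 H2A genes (58.8%, 36.0% to 78.4%), 10 of 16 H2B genes (62.5%, 38.6% to 81.5%), 9 of 13 H3 genes (69.2%, 42.4% to 87.3%) and 9 of 14 H4 genes (64.3%, 38.8% to 83.7%). These intervals overlap widely. All 16 H2B and all 13 H3 genes had a peak in replicate 2. Both genes found in replicate 1 only, H4C3 and H4C5, encode H4, and all 3 genes found in neither list, HIST2H2AA3, H2AC19 and H2AC21, encode H2A.

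By position, 17 of 20 genes of the 27 Mb cluster were bound in both replicates (85.0%, 64.0% to 94.8%), 8 of 11 of the 1q21 cluster (72.7%, 43.4% to 90.3%), 13 of 26 of the 26 Mb cluster (50%, 32.1% to 67.9%) and 0 of 3 genes outside the clusters (upper bound of the interval 56.1%). The intervals of the first and the third overlap slightly. The gap between the chromosome 6 clusters lay in replicate 1, where 15 of 26 and 17 of 20 genes had a peak. In replicate 2 there were 24 of 26 and 20 of 20. Within the 26 Mb cluster only 2 of 7 H2B genes were bound in both, H2BC4 and H2BC5, whereas all 6 H2B genes of the 27 Mb cluster were. Counted at equal list lengths or with stricter scores, the share of the 26 Mb cluster fell further, as given among the alternatives.

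**Figure D2:**
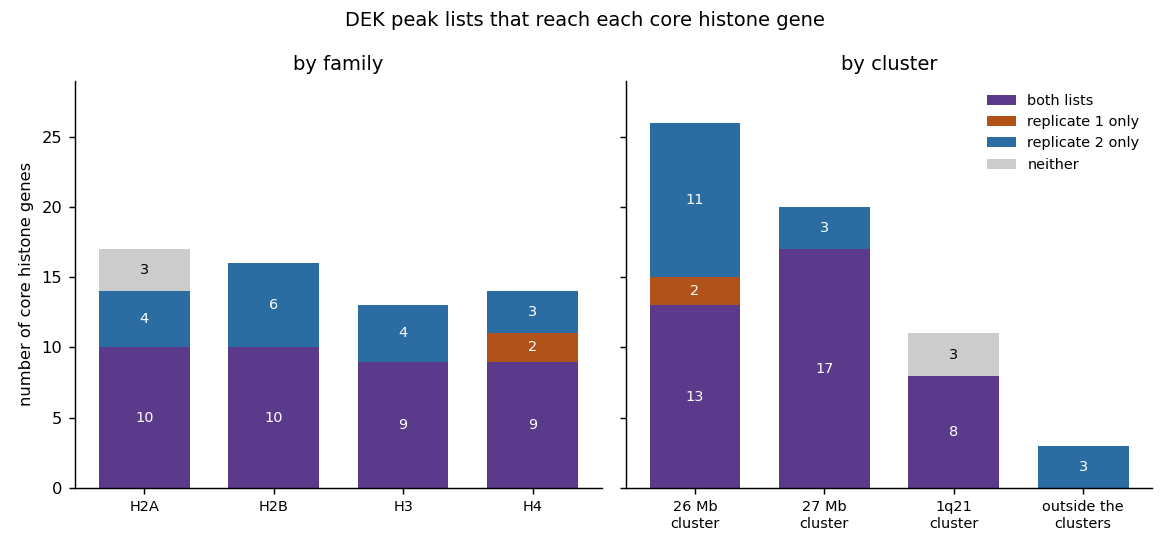
Number of core histone genes with a DEK peak within 1000 bp of a TSS in both lists, in 1 list only or in neither, by family (left) and by position (right). The families are alike in the part bound in both lists (10, 10, 9 and 9 genes), while the 26 Mb cluster holds 11 of the 17 genes seen in replicate 2 only.

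The peaks at core histone genes stood high in both lists. The score of a peak is 10 times the negative log10 of its p-value, and the lists begin at 50. Over the 38 bound genes the median score of the highest peak was 204 in replicate 1 (53.3 to 621) and 261 in replicate 2 (58.4 to 1507), against 75.5 and 109.95 over the 1249 protein-coding genes bound in both. Taking for each gene the lower of its 2 scores, the median was 160.3 at the histone genes and 69.3 over the 1249 genes. When these genes were ranked by the lower score, core histone genes made up 7 of the first 10, 18 of the first 50 and 23 of the first 100. Genes that share a peak are counted each on its own here. The cut at 10 falls between H2AC13 and H2BC13, which tie at 311. Tags per peak had a median of 170.0 and 86.0, against 73.0 and 35.0. The fold enrichment over the local background stood closer to that of other genes in replicate 1 (5.78 against 5.17) than in replicate 2 (6.35 against 4.33). The peaks were also wider. The median width was 2565 bp and 1439 bp, against 1306 bp and 992 bp, and tags per kb of peak were 73.1 and 51.9 against 53.9 and 33.8.

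The 38 genes were served by 28 distinct pairs of peaks, and at all 38 the peak of one replicate overlapped the peak of the other. A tag count was higher in replicate 1 at all 38 genes (median ratio 1.96), and the peak was wider in replicate 1 at 37. The score, by contrast, was higher in replicate 2 at 27 of them. Across the 28 pairs of peaks the scores of the replicates had a Spearman correlation of 0.346 and a Pearson correlation of 0.284, so that the order of the genes differed between replicates. The histone genes held 29 peaks of replicate 1, which are 0.193% of its list and carry 0.58% of its tags, and 50 peaks of replicate 2, which are 0.0327% of the peaks and carry 0.089% of the tags. With 1 peak per gene and replicate, a score has no error of its own, and the pair of values is the spread.

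Among the H2A and H2B genes, the strongest binding was over shared promoters. H2AC20 and H2BC21 in the 1q21 cluster had their TSSs 236 bp apart and shared a peak of 363 tags with a score of 514 in replicate 1, and a peak of 226 tags with a score of 1053 in replicate 2. This was the highest lower score of any protein-coding gene. H2AC12 and H2BC12 shared peaks with scores of 377 and 904 (282 and 183 tags), H2AC13 and H2BC13 had 311 and 599 (220.0 and 154 tags), and H2AC11 and H2BC11 had 621 and 299 (343 and 144 tags). Of these pairs, H2AC11 and H2BC11 alone had the higher score in replicate 1. H3C12, H2AC17 and H2BC17, 3 genes at the end of the 27 Mb cluster, all had a TSS under one peak in each replicate. These peaks had scores of 219.6 and 547 and widths of 4602 bp and 2880.0 bp. The body of H3C12 runs past the end of both peaks. The H3C12 TSS nearest the peaks, its outermost, lies inside H2AC17.

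In all, 12 pairs of the core histone genes counted here stand head to head with TSSs from 170 bp to 979 bp apart. Of these pairs, 10 join an H2A with an H2B gene. H2BC17 belongs to 2 pairs. At 9 pairs both genes were bound in both replicates, and by the same peak in each list. At the other 3, H2AC25 with H2BC26, H2AC1 with H2BC1 and H3C7 with H2BC9, both genes had a peak in replicate 2 only. There was no pair of which 1 gene was bound in both replicates and its partner was not. This follows in part from the window, which is wider than the distance between the TSSs of any pair. H2AC15 and H2BC15, the closest pair, had the lowest scores of the 9, at 91.7 and 79.7.

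Of the H2A genes outside the divergent pairs counted here, H2AC7 had scores of 255 and 341 (168 and 84.0 tags). H2AC4 had 335 and 113, but the replicate 1 peak is the one that also covers H3C2. H2AC8 and H2AC16 had a peak in replicate 2 only, with scores of 138 and 362. HIST2H2AA3, H2AC19 and H2AC21 had none by the rule, yet their TSSs lay inside broad peaks of both lists, whose middles were 1249 and 1273 bp, 1680.0 and 1068 bp, and 1168 and 1199 bp away in replicates 1 and 2. These are thus the genes just outside the window. Just inside it were H3C11 and H3C8 with peak middles 964 and 944 bp away in replicate 2, and H3C4 with 836 and 915 bp. When any base of a peak within 1000 bp was enough, 41 genes were bound in both replicates, against 7.93% of protein-coding genes. The genes gained were HIST2H2AA3, H2AC19 and H2AC21.

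The remaining H2B genes spread over the whole range. H2BC5 had a score of 466 in replicate 1 (420.0 tags over 4271 bp), the widest peak at a bound gene of the 26 Mb cluster, and 143 in replicate 2 (49.0 tags over 986 bp). The highest point of its replicate 1 peak stood at -1692 bp from the TSS, upstream of the gene, and that of replicate 2 at 326 bp. H2BC18 scored in the reverse order, with 87.4 and 346. H2BC6 had a score of 304 in replicate 2, and its nearest replicate 1 peak had its middle 5219 bp away. This gene is annotated over 12597 bp with 2 TSSs, and the peak of score 304 lies at the outermost TSS. H2BC3 had 60.1 in replicate 2, the peak of replicate 1 having its middle 1827 bp away. H2BC1, which is best known from testis, had 55.5 in replicate 2 and none in replicate 1, the nearest middle being 57688 bp away.

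The highest fold enrichment of a core histone gene was at H3C10 in replicate 1 and at H3C2 in replicate 2. H3C10 reached 10.7-fold and 14.3-fold over background in replicates 1 and 2, in narrow peaks of 1430.0 bp and 934 bp with scores of 415 and 827. H3C2 reached 8.38-fold and 15.0-fold with scores of 335 and 819, and no other of the 1249 genes bound in both had a higher fold in replicate 2. H3C14 and H3C15 in the 1q21 cluster had the highest scores of replicate 2 among the core histone genes, 1282 and 1507 (260.0 and 292 tags), while replicate 1 gave 165 and 229. Their sequences are near-identical copies, to which short reads cannot be assigned with certainty. H3C13 and H3C3 were weak in replicate 1 (53.3 and 53.98) and stood at 268 and 238 in replicate 2. As a family, the bound H3 genes had a median score of 165 in replicate 1 and 547 in replicate 2. The 547 is the score of the peak that H3C12 shares with H2AC17 and H2BC17, highest at -629 bp from the H3C12 TSS. The replicate 2 peak of H3C14, highest at -1134 bp from its TSS, also covers HIST2H2AA3.

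The H4 genes differed from the H3 genes in replicate 2. The 9 bound H4 genes had a median score of 165 in replicate 1, the same as H3, but of 179 in replicate 2, with a highest value of 211. Their median fold enrichment was 6.28 in replicate 1 and 4.35 in replicate 2, whereas that of H3 was 4.92 and 8.20. H4C8 (403 and 211), H4C12 (391 and 182), H4C14 (187 and 182), H4C9 (188 and 133) and HIST1H4B (165 and 58.4) scored higher in replicate 1. H4C1 (136 and 179.8), H4C15 (108 and 179), H4C4 (88.7 and 109) and H4C11 (156 and 175) scored higher in replicate 2. H4C3 and H4C5, seen in replicate 1 only, had scores of 281 and 186 there (176 and 174 tags). In replicate 2 the nearest peak middles were 3795 and 3550.0 bp away, in the longer list. This family contrast was found after the values were seen and rests on 1 replicate. It also includes peaks shared between families, as H4C1 had the same peaks as H3C1.

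**Figure D3:**
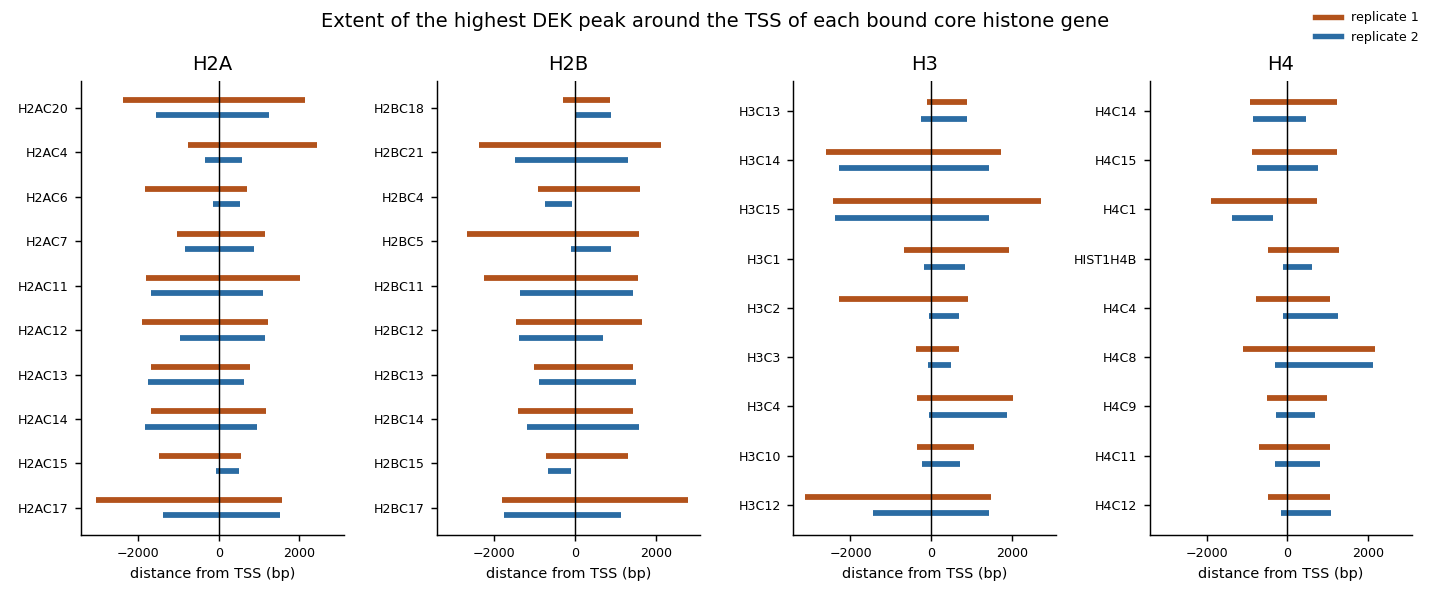
Extent of the highest DEK peak in each replicate around the TSS of the 38 core histone genes bound in both, as distance in bp in the direction of transcription, by family. Peaks of replicate 1 are wider than those of replicate 2 at 37 of 38 genes, and most peaks run past the TSS on both sides.

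Most peaks covered whole genes. Of the 27 bound genes that are at most 2000 bp long, 26 lay entirely inside a peak in each replicate. The highest point of a peak (summit) fell within the first 500 bp of a core histone gene in 23 of 29 peaks of replicate 1 and 37 of 42 of replicate 2. Only upstream, within 500 bp of a TSS, were 4 and 2. At the bound H3 genes the summit of replicate 1 lay downstream of the TSS at all 9, by 152 to 425 bp, and in replicate 2 at 7 of 9. At the H4 genes the median was 7.0 bp in replicate 1 and 250 bp in replicate 2. The summit of replicate 1 was downstream of the TSS at 8 of 10 bound H2A genes and at 2 of 10 H2B genes, whereas in replicate 2 it was 6 of 10 in both families. At H2AC20 and H2BC21, for example, replicate 1 peaked 120.0 bp inside H2AC20 and replicate 2 peaked 355 bp inside H2BC21. Summits of the replicates were a median of 264 bp apart.

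DEK binding in both replicates occurred at core histone genes that carry H3K4me3. The mark, counted when any base of a peak lay within 1000 bp of a TSS in both lists, was present at 53 of 60 genes (88.3%, against 58.6% of protein-coding genes), and either list alone gave the same number. All 38 bound genes had it, and at all 38 it covered the TSS in both lists. Among the 53 marked genes 38 were bound (71.7%, 58.4% to 82.0%), against 9.91% of all marked protein-coding genes. The H3K4me3 peaks at the marked genes had median widths of 4856 bp and 5274 bp (2308 to 7912 bp and 1378 to 7854 bp), and one such peak often spanned neighbouring genes. A peak over several genes is counted for each of them. Over all peaks of the lists, wherever they lie, the medians were 1480.0 bp and 1651 bp. The widths at other marked protein-coding genes were not measured, so whether those at core histone genes are unusual was not tested.

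The 7 genes without the mark were H2AC1, H2BC1, H3C6, H4C7, H3C11, H4C13 and H4C16. None of them was bound in both replicates (0 of 7, upper bound of the Wilson interval 35.4%), against 0.935% of unmarked protein-coding genes. All 7 had a peak in replicate 2, against 36.2%, with scores from 51.9 to 159 and a median of 55.5. Of the marked core histone genes, 48 of 53 had one (90.6%), against 71.5% of marked protein-coding genes. The 10 marked genes seen in replicate 2 only had a median of 176 (60.1 to 362). H2AC1, like H2BC1 known from testis, had a score of 51.9 (19.0 tags), the lowest of all core histone peaks. H3C11 and H4C13 shared 1 peak of 20.0 tags with a score of 54.7. H4C16, which stands alone on chromosome 12, had a score of 142 (29 tags), and the marked pair outside the clusters, H2AC25 and H2BC26, shared a replicate 2 peak with a score of 126 (34 tags). In replicate 1, 40 of 53 marked and 0 of 7 unmarked genes had a peak, against 13.3% and 1.61% of protein-coding genes.

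**Figure D4:**
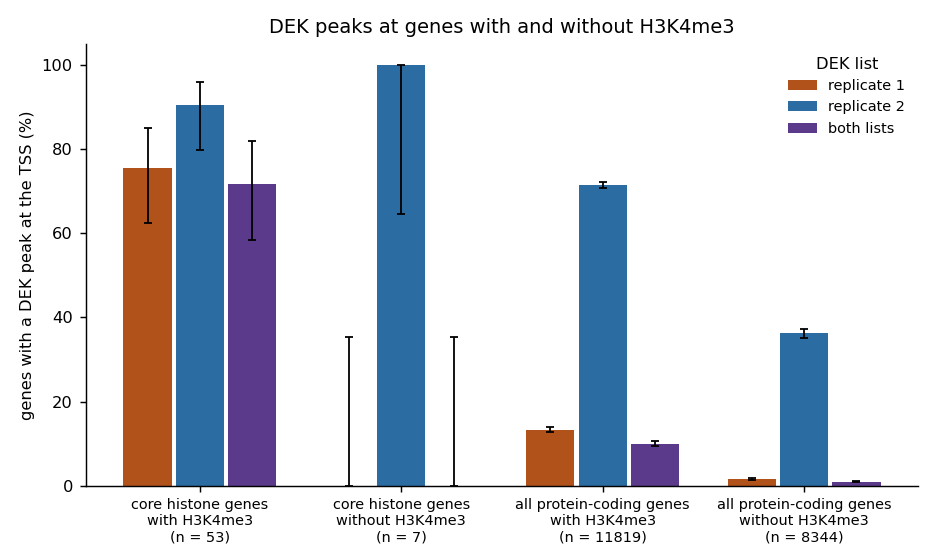
Percent of genes with a DEK peak within 1000 bp of a TSS in replicate 1, replicate 2 and both, for core histone genes and all protein-coding genes with and without H3K4me3 in both lists. Bars start at 0 and lines are 95% Wilson intervals. Core histone genes without the mark have a DEK peak in replicate 2 (7 of 7) and none in replicate 1 (0 of 7).

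Of the 11 genes of the 26 Mb cluster seen in replicate 2 only, 7 were neighbours, among the genes counted, in one run. It went from H2AC8 over H3C6, H4C7, H3C7, H2BC9 and H3C8 to H2BC10. The others were the pair H2AC1 and H2BC1, and H2BC3 and H2BC6, which each stand between genes with a replicate 1 peak. The run spanned chr6:26217149-26273159 on GRCh37, or 56011 bp, and was chosen after the values were seen. Replicate 1 had 1 peak in it and replicate 2 had 13. Over all protein-coding genes, 8.45% had a peak in replicate 1 and 56.9% in replicate 2. A peak in replicate 2 only is thus common at genes of any kind. The highest peaks at the 7 genes scored from 125 to 236 in replicate 2, and 5 of the 7 carried H3K4me3. H4C8, the next gene, was bound in both (403 and 211).

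Inside the 26 Mb and 1q21 clusters, but not the 27 Mb cluster, the peaks of replicate 1 lay mainly at core histone promoters. Of the replicate 1 peaks, 12 of 15 in the 26 Mb cluster (80.0%) and 7 of 8 in the 1q21 cluster (87.5%) had their middle within 1000 bp of a core histone TSS. In the 27 Mb cluster it was 9 of 23 (39.1%). In replicate 2 there were 25 of 75 (33.3%), 7 of 17 (41.2%) and 14 of 149 (9.40%). The clusters held 26.7, 29.9 and 76.0 peaks per Mb in replicate 1, in the order 26 Mb, 27 Mb and 1q21, against 4.82 over the genome, and 133, 194 and 161 in replicate 2 against 49.2. Of the 12 other protein-coding genes inside the clusters, 1 was bound in both replicates (8.33%, 1.49% to 35.4%), near the 6.19% of all protein-coding genes. With H3K4me3 it was 1 of 5 (20.0%, 3.62% to 62.4%), an interval that includes the 9.91% of all marked genes. Histone pseudogenes were bound in both at 2 of 10 in the 26 Mb cluster (5.67% to 51.0%) and 1 of 2 in the 27 Mb cluster (9.45% to 90.5%). In the 1q21 cluster it was 0 of 2 (upper bound 65.8%). No share over all pseudogenes was counted beside them. Whether their peaks are those of neighbouring core histone genes was not tested.

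Genes with related functions were bound in both replicates at shares whose intervals include those of all protein-coding genes (6.19%) and of those with H3K4me3 (9.91%). Of the 8 genes for linker histone H1, which binds the DNA between nucleosomes, 1 was bound in both (12.5%, 2.24% to 47.1%), H1-2 (scores of 257 and 403). Another 5 had a peak in replicate 2 only, among them H1-4 with a score of 901, and H1-3 and H1-6 had none. These H1 counts use the peak middle. A broad peak over an H1 gene with its middle farther away was not counted. Of 29 genes whose products act in the transcription and mRNA processing of histone genes, all with H3K4me3, 2 were bound in both (6.90%, 1.91% to 22%): COIL, which organises nuclear bodies (53.0 and 72.2), and ERI1, a nuclease that trims the histone mRNA end (74.5 and 75.3). In replicate 2, 22 of the 29 had a peak (75.9%), against 71.5% of marked protein-coding genes. The 20 with a peak in replicate 2 only included NPAT, the activator of histone transcription (107), SLBP, which binds the stem-loop (111), LSM10 and LSM11 of the U7 particle (104 and 119.6) and HINFP, which activates H4 genes (109). The other 7, CASP8AP2, CCNA2, CCNE1, CDK2, E2F1, SNRPD3 and SNRPF, had no peak in either list.

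The promoters shared sequence elements that differed between the families. In the 250 bp before the TSS, TATAAA was present at 40 of 60 core histone genes (66.7%) against 10.1% of 20140 protein-coding promoters of that length, and CCAAT at 49 of 60 (81.7%) against 33.1%. CCAAT was found at all 13 H3 genes and at 16 of 17 H2A and 15 of 16 H2B genes, but at 5 of 14 H4 genes (35.7%). The octamer ATTTGCAT was found at 12 of 17 H2A and 11 of 16 H2B genes (70.6% and 68.8%), at 1 of 13 H3 genes and at 0 of 14 H4 genes, against 1.56% of all promoters. It is seen in both divergent promoters of bound genes printed above, and also in that of H2AC1 and H2BC1. The H3 gene that has it is H3C12, whose 250 bp overlap those of H2AC17 and hold the same octamer. GGGCGG was present at 16 of 60 (26.7%) against 48.8%, with 7 of 14 H4 genes having it and 1 of 17 H2A genes. At H3C12 and H2BC15 these letters lie inside the neighbouring genes H2AC17 and H2AC15. GAGGAAGT was found in 0 of 60, against 2.03%. All motifs were searched on both strands. None of these letter strings contains another, and genes with a shared promoter share some of the same letters.

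**Figure D5:**
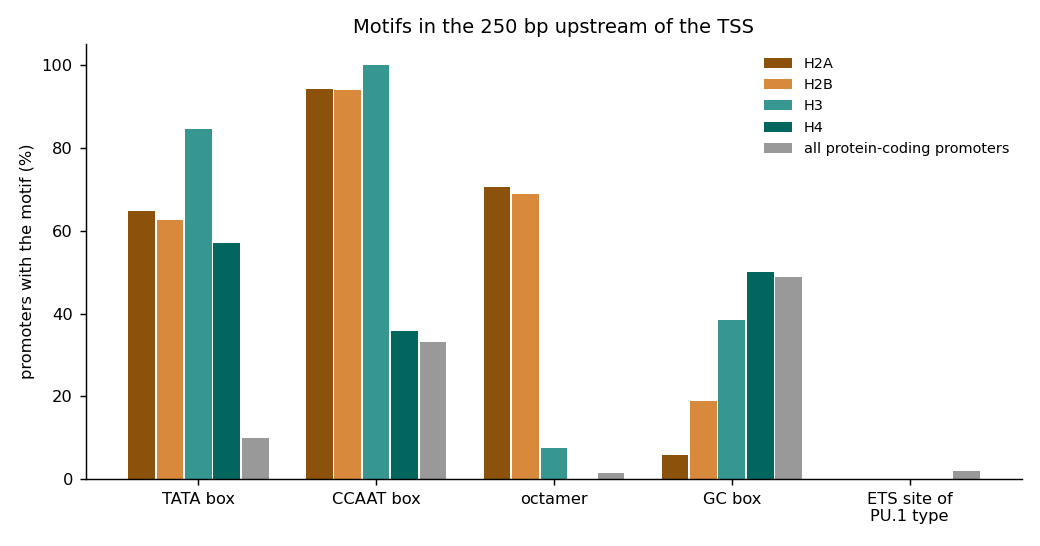
Percent of promoters (250 bp before the TSS) that hold each of the 5 motifs, on either strand, for the 4 core histone families and for 20140 protein-coding genes. The octamer separates H2A and H2B (70.6% and 68.8%) from H3 and H4 (7.69% and 0%), and the CCAAT box separates H4 (35.7%) from the other families.

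TATAAA was present at 28 of 38 genes bound in both replicates (73.7%) and at 12 of 22 others (54.5%), CCAAT at 32 of 38 (84.2%) and 17 of 22 (77.3%), and ATTTGCAT at 16 of 38 (42.1%) and 8 of 22 (36.4%). GGGCGG was present at 14 of 38 (36.8%) and 2 of 22 (9.09%). All 7 genes without H3K4me3 had TATAAA, and 5 of 7 had CCAAT. Genes that share promoters are counted each on its own here, and no test was made of these shares.

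Repeated sequence touches part of these values. At 6 genes of the 1q21 cluster at least 50% of the 100 bp stretches around the TSS occur elsewhere in the genome, in whole at H3C14, H3C15, H4C14 and H4C15, and in 87.4% and 79.0% of the stretches at H2AC19 and HIST2H2AA3. At 36 genes no such stretch was found. Without the 6 genes 34 were bound in both replicates.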

How the data were processed

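Peak lists of 2 DEK and 2 H3K4me3 precipitations from U937 cells were analysed. Reads were aligned by the authors to hg19 with Bowtie2 and peaks were called in each precipitation with MACS 1.4.1, without pooling. For every DEK peak the deposited lists give a count of tags, not normalized. The score deposited by the authors is the −log10 p-value of MACS multiplied by 10, and both lists begin at a score of 50. The deposited fold enrichment is a ratio over the local background of MACS, and the false discovery rate deposited by the authors is a percent. The H3K4me3 lists give positions only, and whether their starts count from 0 or 1 is not stated, which moves an edge by 1 bp. The sources used here state a minimum of reads for every sample, but the depth of each list is unknown.

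TSSs were those of all annotated transcripts of each gene in GENCODE 44 on GRCh37, which need not be the annotation used by the authors. No peak ran past a chromosome end of GRCh37. Each gene was described by its highest-scoring peak within 1000 bp in each list. The members, the lists of marker, H1 and processing genes and the motifs were chosen with earlier results of these data known. The result of 1 marker list is not reported here. Values are given for the 10 bound members with the highest lower score, members bound in 1 list or neither, outside the clusters or just inside or outside 1000 bp, and H2AC1 and H2BC1. Other members named were chosen after their values were seen. Repeated sequence was found by matching every 100 bp stretch within 1000 bp of a TSS to GRCh37. No test was made, because the design compares no groups of samples. Shares carry 95% Wilson intervals. Counting was checked on simulated data, where 6 of 6 checks passed. The analysis used Python 3.11.15 with pandas 2.3.3 and NumPy 2.4.6, and Numba 0.67.0 for the matching of stretches; SciPy 1.17.1 gave the normal quantile of the intervals and Matplotlib 3.10.9 the figures. Alternatives were other windows, overlaps, scores and list lengths, each list alone, and genes without repeated sequence. Expression, DNA methylation and Input were not used here.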

Additional observations from a re-analysis of the deposited data

How the results depend on the processing

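The number of core histone genes bound in both replicates was 38 and lay between 26 (a window of 500 bp) and 42 (a window of 2000 bp) when the definition was changed. Requiring that each peak be covered to 50% by the other gave 28, a score of at least 100 in both lists 29, lists of equal length 29, any base of the peak within the window 41, the gene's outermost TSS 38, the intersected interval 38, genes with little repeated sequence 34, and divergent pairs counted once 29. Replicate 1 alone gave 40 and replicate 2 alone 55. The share of all protein-coding genes was counted for the main rule, for any base and for each replicate alone. The other settings have no such share beside them, so whether the excess over other genes holds there was not tested. Leaving out repeated sequence or counting pairs once also lowers the number of genes counted in all. The families moved little, except that a window of 500 bp left 6 of the 10 H2A and 5 of the 9 H3 genes. With 1 list alone, the numbers ran from 10 to 14 for H2A, 10 to 16 for H2B, 9 to 13 for H3 and 11 to 12 for H4. The 26 Mb cluster depended most on the definition. Against 13 genes, a window of 500 bp gave 4, an overlap of 50% gave 5, a score of at least 100 gave 8 and lists of equal length 7. With 1 list alone it ran from 15 to 24, and outside the clusters from 0 to 3. Replicate 2 alone gave the higher number each time. The other 92 comparisons of a value with its alternative, which include the 27 Mb and 1q21 clusters, H3K4me3 and the median lower score, stayed within 1.5 times of a count or within the spread between the replicates for the median. No paired analysis was possible because no test was made and peak lists hold no values outside their peaks.

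With 2 lists of very unequal length and no Input file used here, the spread between replicates rests on a pair of values for each gene and has no error of its own. A gene without a peak had no enrichment past the threshold of the peak caller, which does not show that DEK was absent there. Neither the depth behind each list nor the part that gene copy number, repeated sequence or open chromatin play in the peaks was tested.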
